A study of Mus musculus with 4 samples.

Results

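The cells described here are bone marrow cells of the mouse that carry RNA of several haematopoietic stem cell genes and none of several genes of committed progenitors. A kept cell had at least 500 genes, at least 1000 UMIs (unique molecular identifiers, each standing for 1 captured RNA molecule), at most 10% mitochondrial UMIs, and at least 80% of its hashtag UMIs from 1 hashtag. A kept cell entered the gate when at least 3 of the 9 genes Mecom, Hlf, Procr, Fgd5, Slamf1, Mamdc2, Rora, Palld and Prkg1 had at least 1 UMI and Flt3, Dntt, Ebf1, Elane and Car1 had 0. The gate held 3607 of 37717 kept cells. Because these 14 genes chose the cells, their levels are given only as descriptions.

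The cells came from 6 female mice labelled Tppp3CreER LSLTdTomato and aged 6 weeks. In these mice a Cre recombinase that needs tamoxifen is driven by Tppp3 and switches on the red reporter tdTomato. The gate was drawn on RNA alone: the reporter was not analysed here, so labelled and unlabelled stem cells are mixed. Mice in the tamoxifen group (2) received tamoxifen on postnatal days 0 and 3. Mice in the tamoxifen with rapamycin group (2) received both agents on those days, and values "with both agents" are theirs. Mice in the late rapamycin group (2) received rapamycin on postnatal day 30 and no tamoxifen, so that they differ from tamoxifen mice in both agents and in timing. The design text speaks of isolation after 2 weeks, which does not match the labelled age. The labels name lineage-negative Kit+ cells, with and without Sca, and whole marrow as the cells loaded. One mouse of each treatment was processed on each of 2 days, carrying its own hashtag antibody. Treatments were read from the hashtag table, where numbers 2 and 5 are tamoxifen, 1 and 4 are tamoxifen plus rapamycin, and 3 and 6 are controls, taken here as late rapamycin. The sample labels instead number the tamoxifen mice 1 and 4. Should the labels count hashtags, the names of the tamoxifen groups would swap in every result below.

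Haematopoietic stem cells sit at the top of blood formation: they renew themselves and give rise to multipotent progenitors, which gain Flt3 and lose stem cell genes as they turn towards lymphoid and myeloid fates. Some stem cells are biased towards platelets, and RNA of the clotting protein von Willebrand factor (Vwf) is the usual mark of these. Rapamycin inhibits mTORC1, a kinase complex that drives protein synthesis and growth and whose activity is kept low in resting stem cells.

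Day 1 gave 19619 kept cells and day 2 gave 18098. The 6 mice gave 350 to 751 gate cells, with 1278657 to 3742881 UMIs per mouse and a median of 2504.5 to 4419 UMIs per cell. Mice of day 1 had shallower gate cells than the mouse of the same treatment on day 2, and 1 barcode was shared between gate cells of both days. Late rapamycin replicate 1 stood apart: it had the fewest gate cells, and 3.71% of them were rich in genes of another cell type, against 1.12% to 2.26% in the other mice.

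The label of a stem cell gate was checked on genes the rule did not use. Meis1, a homeobox gene of stem and early progenitor cells, had a UMI in 97.0% of gate cells. Kit, the stem cell factor receptor, had one in 73.1%. Ly6a, which encodes Sca-1, was seen in 20.5%, and Hoxb5, a gene of long-term stem cells, in 2.25%. B cells of the same mice were kept cells with UMIs of both Ebf1 and Cd79a, of any stage, and 40.4% of them had a Mki67 UMI. Their shares were 13.6% for Meis1, 8.61% for Kit, 3.81% for Ly6a and 0.0552% for Hoxb5, at a lower depth of 1354 to 2256 UMIs per cell. In the Flt3-positive cells, a class of kept cells with at least 1 Flt3 UMI and none of Dntt, Ebf1, Elane and Car1, they were 91.6%, 68.9%, 23.9% and 0.751%. These genes thus set the gate apart from B cells, while Meis1, Kit and Ly6a were common in Flt3-positive cells too. Cd48, which is low on stem cells, was still seen in 19.9% of gate cells, against 33.9% of Flt3-positive cells.

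Which markers let a cell in was uneven. Mecom, a transcription factor needed by stem cells, had a UMI in 95.4% of gate cells. Hlf, a second such factor, was seen in 86.5%, and Prkg1, a cGMP-dependent kinase, in 80.9%. Rora, a nuclear receptor, was seen in 38.5%. Palld, an actin-binding protein, was seen in 29.8% and Mamdc2 in 28.9%. Fgd5, a classic stem cell marker, was seen in 17.4%, Procr, which encodes the EPCR protein of stem cell sorting panels, in 11.2%, and Slamf1, which encodes CD150, in 9.56%. Passing the gate therefore rested mostly on Mecom, Hlf and Prkg1, and the surface genes used to sort stem cells were the least often seen. Mecom and Hlf were also common in the Flt3-positive cells, while Prkg1 was seen in 29.8% and Slamf1 in 1.17% of them.

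**Figure D1:**
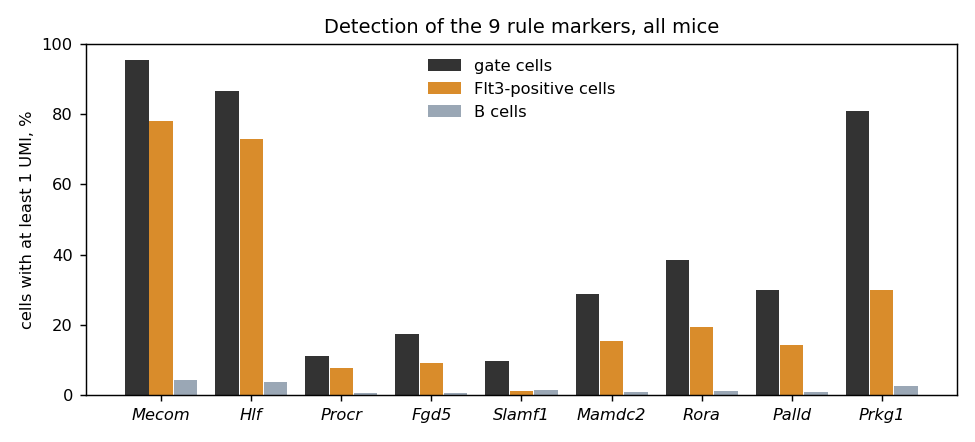
Share of cells with at least 1 UMI (vertical axis, percent) of each of the 9 rule markers in gate cells, Flt3-positive cells and B cells, all 6 mice together. Mecom, Hlf and Prkg1 were seen in over 80% of gate cells, and B cells stayed at or below 4.25% for every marker.

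Most gate cells sat near the threshold: 1514 had 3 of the 9 markers, 1108 had 4 and 985 had 5 or more. Just outside it were 1411 cells with 2 markers and the same absences. Mllt3, a gene that maintains stem cells, had a median over mice of 222 CPM (counts per gene scaled to 1 common total per mouse) in the cells with 2 markers, 297 with 3, 454 with 4 and 618 with 5 or more. Cd48 went the other way, with 121, 107, 75.5 and 29.0 CPM. Mpo, the myeloperoxidase of myeloid progenitors, stood at 262, 155, 59.6 and 51.1 CPM. Cells with 3 markers lay between those just outside and those with more for these genes, but not for every gene. Gata2, a factor of stem cells and early progenitors, stood at 160, 132, 134 and 152 CPM, highest just outside the threshold.

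Genes that bar a cell from the gate were common among marker-rich cells. Of cells with at least 3 markers, 39.9% to 54.4% per mouse had a Flt3 UMI. Elane, a neutrophil protease, was seen in 5.42% to 14.01%, but also in 2.75% to 12.2% of B cells of the same mice, which should lack it; how many cells free RNA barred from the gate was not tested. Dntt, an enzyme of lymphoid progenitors, was seen in 3.79% to 16.7%, highest in late rapamycin replicate 1.

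Markers of other cell types were summed in the gate and set beside all kept cells. The 8 neutrophil markers summed to 3160 and 1085 CPM with tamoxifen alone (day 1, then day 2, as in all lists below), 2839 and 2157 with both agents, and 10950 and 1963 in late rapamycin, against 27550 over kept cells. Most of this came from few cells: without the 67 gate cells with at least 10 UMIs that made them rich in another type, the sum was 178 to 460 CPM. The 8 B cell markers summed to 21.9 to 31.9 CPM (327 over kept cells) and the 6 T and NK cell markers to 79.6 to 111 (170). The 5 basophil and mast cell markers summed to 20.7 to 104.5 (68.2), on both sides of the kept value, and the 5 stromal markers to 17.6 to 38.3 (17.5). The 4 markers of granulocyte-monocyte progenitors summed to 261 to 475 CPM (3900 over kept cells), the 5 monocyte markers to 38.5 to 81.3 (552) and the 5 dendritic markers to 87.0 to 112 (216). Megakaryocyte and endothelial markers, like the stromal ones, were higher in the gate of every mouse than over kept cells. The 7 megakaryocyte markers summed to 290 to 451 CPM, against 89.6, and the 5 endothelial markers to 157 to 240.5, against 153. The 8 erythroid markers stood at 21.4 to 38.5 CPM in 5 mice and at 267 in tamoxifen with rapamycin replicate 2, where 1 cell gave 91.4% of them. Igll1, Cd3e, Cd209d, Gp6, Cdh5 and Col3a1, which define pre-B, T, dendritic, late megakaryocyte, endothelial and stromal cells, were at 0. Other members of those lists were not: Cd79b gave 289 of 371 B cell marker UMIs in the gate, Nkg7 1158 of 1202 for T and NK cells, Bst2 1223 of 1337 for dendritic cells, Pf4 1921 of 4600 for megakaryocytes, Pecam1 1884 of 2525 for endothelium and Pdgfrb 352 of 356 for stroma. Levels in summed cells cannot tell fewer expressing cells from less RNA per cell.

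The gate's share of kept cells was 10.4% and 12.1% with tamoxifen alone, 8.64% and 9.81% with both agents, and 4.95% and 12.3% in late rapamycin. Both mice given tamoxifen with rapamycin lay below both tamoxifen mice, while the late rapamycin mice held the lowest and the highest share. Tamoxifen with rapamycin had 9.23% ± 0.832 (SD, n = 2) against 11.2% ± 1.19 in tamoxifen, a difference of -1.996 percentage points (exact two-sided permutation p = 0.333; no smaller p is possible with 2 mice per treatment). Late rapamycin had 8.64% ± 5.22, which was -2.58 points from tamoxifen (exact permutation p = 1). Its day 1 mouse lay -5.43 points from the tamoxifen mouse of that day, and its day 2 mouse 0.272 points. The gate was also drawn after thinning kept cells to 2000 UMIs each. In the same order of mice the shares were then 9.32% and 14.5%, 7.57% and 10.6%, and 3.54% and 13.2%. With at least 4 markers they were 5.76% and 7.95%, 4.21% and 6.41%, and 2.32% and 7.26%. In both runs the tamoxifen treatments overlapped (exact permutation p = 0.667), and tamoxifen replicate 2 was highest. With at least 2 markers or a 95% hashtag share these treatments stayed apart. A share depends on what else was loaded. As a share of gate and Flt3-positive cells together the 6 mice lay at 35.2%, 35.2%, 35.9%, 35.2%, 34.0% and 39.9%, and tamoxifen with rapamycin minus tamoxifen was 0.387 points.

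**Figure D2:**
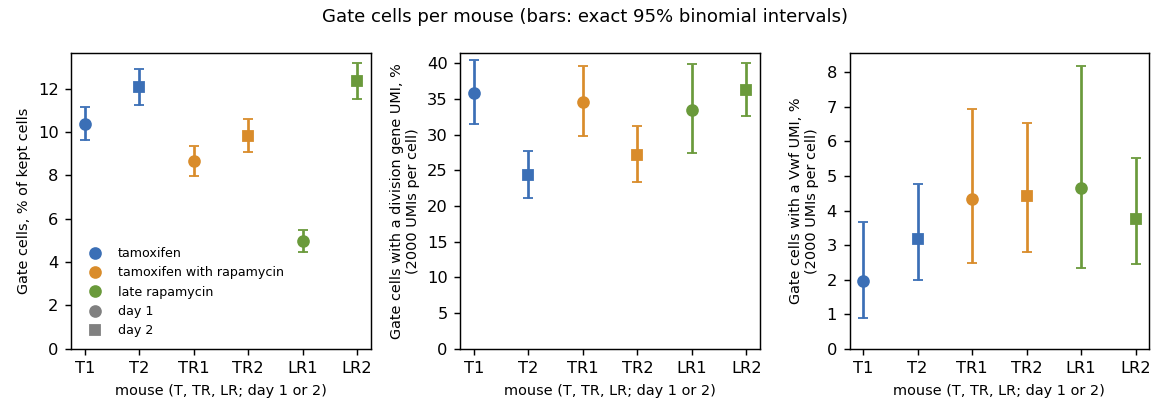
Gate cells of each mouse: share of kept cells (left), share with a UMI of at least 1 of 10 division genes (middle) and share with a Vwf UMI (right), the last pair after thinning kept cells to 2000 UMIs and drawing the gate again. Points are mice, T for tamoxifen, TR for tamoxifen with rapamycin and LR for late rapamycin, and bars are exact 95% binomial intervals that cover counting error only; late rapamycin spans the lowest and highest share on the left.

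Cells in division were counted by 10 genes of mitosis, such as Mki67. Depth was made equal by thinning each kept cell to 2000 UMIs, leaving out shallower cells (15 to 118 gate cells per mouse), and applying the gate's rule again to the thinned counts. That left 236 to 695 gate cells per mouse, which are not the same set as the 350 to 751 above. The share with at least 1 such UMI was 35.9% and 24.3% with tamoxifen alone, 34.6% and 27.2% with both agents, and 33.5% and 36.3% in late rapamycin. All treatments overlapped (exact permutation p from 0.667 to 1). The day 2 mice had the lower share in both tamoxifen treatments. In the gate before thinning, which differs in both depth and cells, the shares were 42.4% and 35.1%, 38.7% and 37.5%, and 49.7% and 56.9%, highest in both late rapamycin mice, which had 3134 and 4419 UMIs per gate cell against 2504.5 to 3548 in the other 4.

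The rule's own genes varied as follows, without a test. Hlf stood at 827 and 848 CPM with tamoxifen alone, 749 and 889 with both agents, and 397 and 646 in late rapamycin, lowest in both late rapamycin mice. Mamdc2 was at 123 and 121, 135 and 137, and 93.8 and 92.3 CPM in the same order, again lowest in late rapamycin. Rora, at 217, 275, 215, 239, 163 and 172 CPM, showed that order too. Mecom (1090 to 1376 CPM), Prkg1 (603 to 917), Palld (87.5 to 149), Fgd5 (37.7 to 64.4), Procr (22.1 to 40.0) and Slamf1 (19.9 to 53.3) varied too. Mecom, Palld and Fgd5 overlapped between all groups. Procr was lowest in both late rapamycin mice, at 30.2 and 22.1 CPM against 32.5 to 40.0. Prkg1 was higher with tamoxifen alone (752 and 917 CPM) than with both agents (694 and 692), and Slamf1 was lower with tamoxifen alone (31.4 and 19.9) than in late rapamycin (53.3 and 32.3).

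Tppp3, whose promoter drives the Cre, was all but unseen at 6 weeks. Gate cells held 1 and 2 Tppp3 UMIs with tamoxifen alone, 1 and 4 with both agents, and 2 and 1 in late rapamycin. These counts correspond to 0.267 to 1.66 CPM, and their exact 95% Poisson intervals reach from 0.00676 to 5.65 CPM and overlap for all mice. No difference in Tppp3 was detectable at this depth.

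Gate cells were set beside Flt3-positive cells, the class nearest to them. Both classes were picked by genes read in the same cells, so this contrast is descriptive. Of 11428 genes outside the rules, 2403 differed at an adjusted p under 0.05 by edgeR's quasi-likelihood test with the mouse as a block (21.0%), 1178 higher (10.3%) and 1225 lower (10.7%) in the gate. Nothing is read from that share.

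Platelet and megakaryocyte genes stood higher in the gate. Pf4, the chemokine of platelet granules, had a median over mice of 131 CPM (103 to 248) in gate cells and 12.5 (4.39 to 19.7) in Flt3-positive cells, a log2 difference of 3.47 ± 0.14 (SE). Vwf stood at 30.5 CPM (15.4 to 44.9) against 5.21 (3.83 to 9.93), a log2 difference of 2.43 ± 0.16. Neither gene's ranges met. Cavin2 (log2 difference 4.44), the platelet receptor genes Itga2b (2.05), Gp5 (2.59) and Gp9 (1.499), Treml1 (3.76), and Cd9 (1.17) lay on the same side. Of 21 tested genes on the platelet and megakaryocyte list, 18 were higher, with a median log2 difference of 1.48, against 0.00 over all genes. The transcription factors Gata1 (2.84), Gata2 (1.24) and Zfpm1 (1.45), shared by megakaryocyte and red cell precursors, were higher too, as was Aldh1a1 (3.39), a retinaldehyde dehydrogenase. Few cells weighed on these values: 7 to 18 gate cells per mouse were rich in megakaryocyte genes, and they held 30.9% to 54.0% of the megakaryocyte marker UMIs of the gate. Without them and cells rich in other types, Pf4 stood at 1.78, Vwf at 2.00, Itga2b at 1.73 and Cavin2 at 4.06, and 17 of 19 tested list genes were higher and 1 (Plek) lower, with a median of 1.32.

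Stem cell and resting-state genes followed. Tek, the receptor of Angpt1, had 40.1 CPM (37.7 to 46.1) in the gate and 12.1 (11.2 to 14.8) in Flt3-positive cells, a log2 difference of 1.68 ± 0.10. The ion channel gene Trpc6 was higher by 1.95, the growth arrest genes Cdkn1c and Ndn by 1.70 and 1.47, the immediate early gene Egr1 by 0.89, and Deptor, an inhibitor of mTOR, by 0.67. On the list of stem cell genes beyond the rule, 28 of 37 were higher and 3 lower (Hmga2, Vldlr and Hoxa9), with a median log2 difference of 0.72. On the mTOR list of 37 genes 2 were higher and 4 lower, with a median of 0.02.

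Genes of lymphoid and myeloid priming were lower. Satb1, a chromatin organiser of lymphoid priming, had 93.0 CPM (60.7 to 102) in the gate and 327 (243 to 361) in Flt3-positive cells, a log2 difference of -1.83 ± 0.05. The heavy chain gene Ighm differed by -3.21, the interferon regulatory factor Irf8 by -3.50, Il1r1 by -1.38, Cd34 by -0.70 and Plac8 by -0.94. Mpo differed by -1.62 and the protease gene Ctsg by -2.15. Of 16 tested genes on the lymphoid and multipotent list 15 were lower and 1 (Ctla2a) was higher, and of 17 myeloid genes 13 were lower.

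The Flt3-positive class also held markers of later cells, which bear on this contrast: all 5 tested monocyte markers and all 4 tested dendritic markers were lower in the gate, among them Csf1r by -3.37, Ccr2 by -3.72, Siglech by -4.76 and Ly6d by -5.13. Their part in the difference was not tested. Of 9 MHC class II genes 6 were lower, including H2-Ab1 (-0.80), H2-Ob (-0.83) and the invariant chain Cd74 (-1.40). Of 40 genes of DNA replication 14 were lower, such as Uhrf1 (-0.39) and Dtl (-0.31), while the 10 division genes were split, with 1 higher, 1 lower and a median of 0.03.

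**Figure D3:**
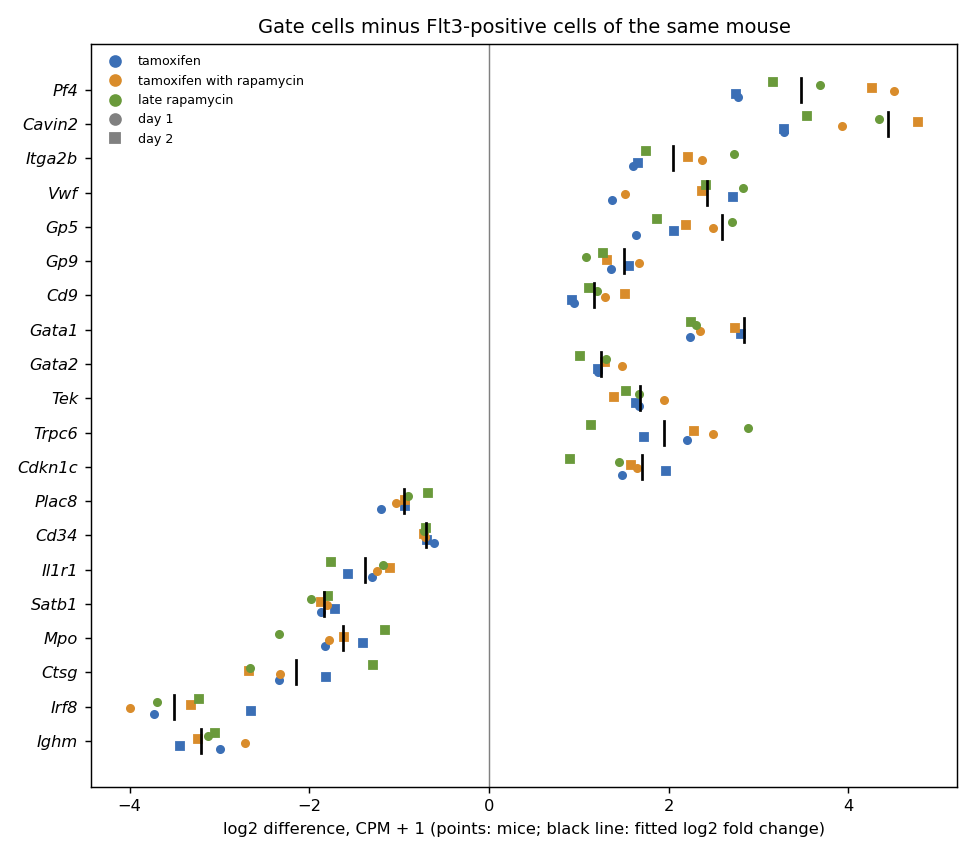
Log2 difference (CPM + 1, horizontal axis) between gate cells and Flt3-positive cells of the same mouse for named genes. Points are the 6 mice, coloured by treatment and shaped by day, and black lines are the fitted log2 fold changes; all mice lie right of 0 for the platelet and stem cell genes and left of 0 for the lymphoid and myeloid genes.

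Vwf is not one of the rule's genes, so the gate was split by it. Gate cells with at least 1 Vwf UMI numbered 22 and 55 with tamoxifen alone, 33 and 44 with both agents, and 32 and 61 in late rapamycin, 247 in all. The other 3360 gate cells had none. These 404 Vwf UMIs reached at most 8 in a cell, so a cell with 0 may still carry Vwf RNA. With kept cells thinned to 2000 UMIs and the gate drawn again, as above, the share with a Vwf UMI was 1.96% and 3.17% with tamoxifen alone, 4.32% and 4.41% with both agents, and 4.66% and 3.77% in late rapamycin. Both tamoxifen mice lay below the other 4, with differences of 1.80 and 1.65 points from them (exact permutation p = 0.333, the smallest possible, for both). With at least 4 markers the thinned shares were 2.27% and 3.83%, 5.80% and 5.80%, and 2.30% and 3.93%, so that late rapamycin minus tamoxifen became 0.0677 points and those mice overlapped (exact permutation p = 0.667). Flt3-positive cells thinned alike had 0.512% to 1.79%. In the unthinned gate the shares were 3.35% and 7.69%, 6.13% and 7.37%, and 9.14% and 8.12%, so that tamoxifen replicate 2 then lay among the others.

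Vwf-positive gate cells carried more RNA of other platelet genes. Here too the classes were picked by RNA read in the same cells, so this contrast and its p-values are descriptive. Of 8923 genes tested, 1232 passed edgeR's quasi-likelihood test at a Benjamini-Hochberg adjusted p under 0.05 (13.8%), with 629 higher (7.05%) and 603 lower (6.76%). Pf4 had 1002 CPM (median over mice, 784 to 2669) in Vwf-positive and 39.5 (28.1 to 78.1) in Vwf-negative cells, a log2 difference of 4.78 ± 0.12 (edgeR adjusted p = 1.76e-40). The ranges did not meet, and the difference was seen in 6 of 6 mice. Cavin2 rose by 4.04, Itgb3 and Itga2b, the 2 chains of the fibrinogen receptor, by 2.72 and 1.99, Cd9 by 1.81, Gp9 by 1.65 and Treml1 by 2.82. On the platelet list 16 of 20 tested genes rose and 1 (Vwa5a) fell, with a median of 1.70 against 0.00 over all genes.

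The rise also included Pde10a (4.56), a phosphodiesterase, Serpine2 (3.82), a protease inhibitor, and Ache (3.92), acetylcholinesterase. Clu (3.77), the chaperone clusterin, rose too and is 1 of the platelet list genes counted above. The transcription factor genes Fli1 (0.96), Gata1 (1.48) and Zfpm1 (1.18) rose, and so did Trpc6 (1.11), the survival gene Bcl2 (0.78) and Tgfb1 (0.71), a signal that holds stem cells at rest. With all UMIs, division genes rose as a group: 9 of 10 passed, with a median of 0.73, among them Mki67 (0.62), Birc5 (0.84) and Ccnb1 (1.28). Of 78 ribosomal protein genes 29 rose, as did 29 of 73 genes of oxidative phosphorylation and 9 of 19 heat shock chaperones.

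Lymphoid and myeloid genes fell in Vwf-positive cells. Cd34, a surface protein of progenitors, stood at 73.2 CPM (56.0 to 139) against 247 (218 to 263), a log2 difference of -1.57 ± 0.14 (adjusted p = 1.56e-13 by edgeR's quasi-likelihood test) in 6 of 6 mice. Satb1 fell by 1.91 on the log2 scale, Tespa1, a T cell signalling gene, by 2.98, and Ly6a by 1.51. Csf3r, the G-CSF receptor, fell by 1.72 and Mpo by 2.09. Of 13 lymphoid and multipotent genes 10 fell and none rose, and of 11 myeloid genes 10 fell. Sema3d, a secreted guidance protein, and Pdgfrb, a growth factor receptor, fell by 2.53 and 2.76, and Foxo3, a factor of resting stem cells, by 0.49. Stem cell genes beyond the rule were divided, with 11 of 35 higher and 10 lower.

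Depth and other cells moved with this split. Vwf-positive cells had a median of 4496 UMIs against 3294. Of them 53 of 247 were rich in megakaryocyte genes, against 15 of 3360 Vwf-negative cells. Neutrophil markers fell in all 6 tested, among them Camp by 4.15 and Ngp by 3.44 on the log2 scale, and 66 of the 67 cells rich in other types were Vwf-negative. Without both kinds of rich cells 236 genes passed, of which 222 were among the 1232. With cells thinned to 2000 UMIs and the gate drawn again before the split 44 genes passed, 39 of them shared, and Mki67 then stood at -0.15, against 0.62 with all UMIs. The part of depth in the rise of division, ribosomal, oxidative phosphorylation and chaperone genes was not tested.

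**Figure D4:**
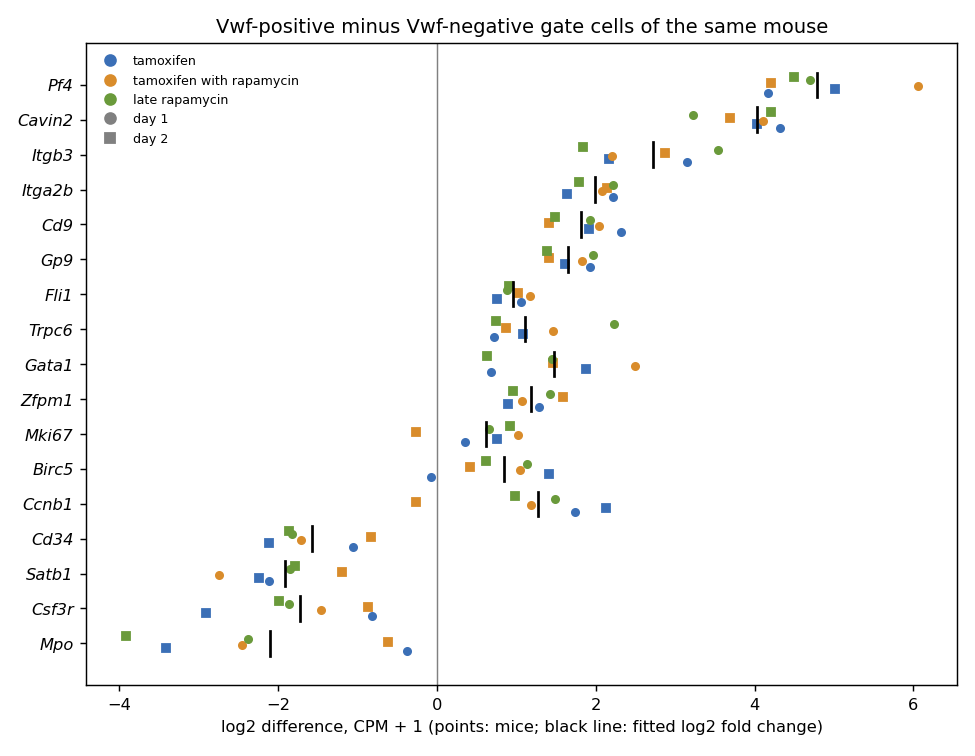
Log2 difference (CPM + 1, horizontal axis) between Vwf-positive and Vwf-negative gate cells of the same mouse. Points are the 6 mice, coloured by treatment and shaped by day, and black lines are the fitted log2 fold changes; platelet genes from Pf4 to Gp9 lie right of 0 in every mouse, and the division genes Mki67, Birc5 and Ccnb1 lie left of 0 in 1 mouse each.

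Treatments were compared over mice in summed gate cells, with day as a block and 11324 genes outside the rule tested. Nothing in the labels says whether mice came from separate litters. The p-values rest on an estimate of the spread shared by all 6 mice, with only 2 mice per treatment. The 3 comparisons share mice, so a group that differs from both others appears in both of its comparisons.

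The first comparison asks what rapamycin added to neonatal tamoxifen left in the gate at 6 weeks. Of 11324 genes 4 passed (0.0353%), 3 higher (0.0265%) and 1 lower (0.00883%), and 586 had an unadjusted p under 0.05. Nxpe5 (chr5:138225898-138253363, build GRCm38) stood at 7.47 and 10.5 CPM with tamoxifen alone, 60.9 and 54.5 with both agents, and 15.1 and 9.42 in late rapamycin. Both mice given tamoxifen with rapamycin lay above the other 4. The log2 fold change was 2.63 ± 0.25 (SE, n = 2 mice each; edgeR quasi-likelihood adjusted p = 0.00209). Ctse (chr1:131638306-131675505), the protease cathepsin E, was at 62.2 and 75.6, 159 and 154, and 53.3 and 63.0 CPM in the same order. It followed the same pattern, with a log2 fold change of 1.17 ± 0.12 (edgeR adjusted p = 0.00263). Leaving out tamoxifen with rapamycin replicate 2 ended the call of Nxpe5 (then 2.65), and leaving out replicate 1 ended that of Ctse (then 1.04). The third was Plac8 (chr5:100553725-100572245), a gene of multipotent and myeloid progenitors, with 352 and 320, 540 and 491, and 638 and 573 CPM. Here both rapamycin treatments lay above tamoxifen, by a log2 of 0.62 ± 0.08 (edgeR adjusted p = 0.0240) and, for late rapamycin, 0.85 ± 0.08 (edgeR adjusted p = 0.00120). The first of these calls was lost without tamoxifen replicate 1 (0.61) or without either tamoxifen with rapamycin mouse (0.63 and 0.61). The fourth, named after its values were seen, was the long non-coding RNA Gm49692, at 21.9 and 19.5, 1.90 and 3.33, and 17.5 and 30.4 CPM (log2 fold change -2.91 ± 0.40, edgeR adjusted p = 0.0257), and tamoxifen with rapamycin held 3 and 8 UMIs of it. Without either of those mice it did not pass (-2.74 and -3.25).

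Genes just short of the threshold in this comparison are given as values. Sema3d had 27.9 and 20.3 CPM with tamoxifen alone, 68.5 and 82.4 with both agents, and 32.6 and 11.6 in late rapamycin (log2 1.70 ± 0.28 against tamoxifen, edgeR adjusted p = 0.0746). Gatm, an enzyme of creatine synthesis, stood at 1.07 (edgeR adjusted p = 0.0746). Dynll1, a light chain of the dynein motor, had 179 and 168, 110 and 114, and 236 and 232 CPM. No groups overlapped, and against tamoxifen the log2 fold change was -0.62 ± 0.10 (edgeR adjusted p = 0.0713).

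Between the tamoxifen treatments the lists held 2 of the calls, Ctse on the myeloid list and Plac8 on the lymphoid and multipotent list. None of 21 platelet genes, 39 stem cell genes beyond the rule, 37 mTOR genes and 19 heat shock chaperones passed, with medians of 0.04, 0.03, -0.03 and -0.01. Some lists without a call lay mostly on 1 side of 0, where 5646 of all 11324 genes lay above it: 5 of 78 ribosomal protein genes (median -0.05), 9 of 40 genes of S phase (-0.12), 2 of 17 immediate early genes (-0.15) and all 10 division genes (0.18) did. Vwf stood at 15.4 and 30.8 CPM with tamoxifen alone, 30.4 and 27.1 with both agents, and 45.3 and 31.8 in late rapamycin. It did not pass in any comparison, with log2 fold changes of 0.26 ± 0.30 and 0.62 ± 0.28 against tamoxifen (edgeR adjusted p = 0.959 and 0.382). The sign of the first rested on tamoxifen replicate 1, since without it the value was -0.27.

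Late rapamycin against tamoxifen gave 79 of 11324 genes (0.698%), 35 higher (0.309%) and 44 lower (0.389%), and 1475 genes with an unadjusted p under 0.05. Without the day block 8 passed. Heat shock chaperones, which fold proteins in the cytosol, mitochondria and endoplasmic reticulum (ER), were the list with the most calls. Of 19 tested members 7 rose and none fell, 18 lay above 0, and the median was 0.41 against 0.00 over all genes.

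The cytosolic chaperones come first. Hsph1, a nucleotide exchange factor of the Hsp70 family, had 41.8 and 34.4 CPM with tamoxifen alone, 26.6 and 30.4 with both agents, and 69.9 and 93.9 in late rapamycin. Both late rapamycin mice lay above all others, with a log2 fold change against tamoxifen of 1.15 ± 0.17 (edgeR adjusted p = 0.0107). Hspa8, the constitutive Hsp70, had 872 and 783, 790 and 759, and 1238 and 1273 CPM (log2 0.61 ± 0.08, edgeR adjusted p = 0.00591). Hsp90aa1, the inducible cytosolic Hsp90, had 761 and 684, 817 and 659, and 1002 and 1121 CPM (0.56 ± 0.10, edgeR adjusted p = 0.0341). In all 3 genes the late rapamycin mice were the highest of the 6. Without tamoxifen replicate 2 or late rapamycin replicate 2, Hsph1 stood at 0.79 and 0.84 and did not pass, and without tamoxifen replicate 2 Hsp90aa1 (0.52) did not.

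The mitochondrial and ER members did the same. Hspe1 and Hspd1, the subunits of the mitochondrial chaperonin, rose by log2 0.62 and 0.51. Hspa5 (BiP), the Hsp70 of the ER, had 325 and 282 CPM with tamoxifen alone, 290 and 201 with both agents, and 460 and 395 in late rapamycin (0.50 ± 0.10, edgeR adjusted p = 0.0434). Its partner Hsp90b1 rose by 0.60. Without tamoxifen replicate 1 or late rapamycin replicate 2 Hspa5 (0.41 and 0.42) and Hspd1 (0.54 and 0.37) did not pass. Among called genes outside the list, Sdf2l1, an ER cofactor of Hspa5, had 30.4 and 25.3, 32.3 and 28.7, and 60.4 and 58.7 CPM (1.12 ± 0.16, edgeR adjusted p = 0.00966), without overlap between late rapamycin and the rest. Manf, a protein held in the ER, and Dnajc3, an ER co-chaperone, rose by 0.62 and 0.64; both were picked for their function after their values were seen.

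Promoters of these genes are shown because they moved together. Of the 12 chaperone and ER genes called in either comparison with late rapamycin, 9 had an entry in the RefSeq promoter table (GRCm38.p6, 250 bases before to 50 after the start), and Hsp90aa1, Hspa8 and Manf had none. The ER stress response element, CCAAT and CCACG with any 9 bases between them, searched on both strands, lay in 3 of the 9 and in 0.119% of 32851 promoters. The 12 genes were chosen by function, and Sdf2l1, Manf and Dnajc3 were added from outside the chaperone list. Manf and Dnajc3 were added after their values were seen, and Dnajc3 carries the element. These shares therefore cannot show a link to the calls. Whether the element was more frequent in called than in uncalled chaperones was not tested. Below, capitals mark its fixed bases, and each line runs 5′ to 3′ along the gene's strand.
Hspa5, chr2:34772005-34772063, plus strand: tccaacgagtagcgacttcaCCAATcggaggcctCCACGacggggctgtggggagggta
Dnajc3, chr14:118937807-118937865, plus strand: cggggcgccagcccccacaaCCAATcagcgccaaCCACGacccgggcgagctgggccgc
Hsp90b1, chr10:86705618-86705676, minus strand: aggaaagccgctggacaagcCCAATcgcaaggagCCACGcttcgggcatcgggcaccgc
Hsp90b1, chr10:86705513-86705571, minus strand, element on the other strand: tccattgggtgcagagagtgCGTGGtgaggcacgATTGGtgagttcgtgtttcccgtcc
The element begins 65 bases before the start of Hspa5, 105 before that of Dnajc3, and 212 and 107 before that of Hsp90b1. It was not found in the window of Sdf2l1. The bases between the fixed parts differ among these genes.

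The heat shock element, GAA, TTC and GAA with any 2 bases between each, searched on both strands, lay in 3 of the 9 (Hspe1, Hspd1 and Hsph1) and in 0.603% of all promoters. Here too the genes were chosen by function and uncalled chaperones were not compared, so these shares cannot show a link to the calls. Hspe1 and Hspd1 are transcribed apart from 1 shared stretch that holds a pair of overlapping matches, 1 on each strand. Each line below shows the match on that gene's own strand in capitals, so the lines overlap but mark different bases.
Hspe1, chr1:55088044-55088096, plus strand: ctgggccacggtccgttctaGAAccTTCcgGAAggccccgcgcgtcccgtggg
Hspd1, chr1:55088039-55088091, minus strand: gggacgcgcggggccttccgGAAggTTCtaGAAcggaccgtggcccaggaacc
These matches begin 84 bases before the start of Hspe1 and 139 before that of Hspd1. Those of Hsph1, not shown, lie after its start and begin at bases 16 and 37 of the transcript. A match is a description of these letters, not a binding site or a cause, and binding was not measured here.

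Dividing cells and single mice bear on the chaperone result. In gate cells with no division gene UMI none of the 19 chaperones passed, the median was 0.25, and Sdf2l1 stood at -0.12. With fewer cells in that subset the test also has less depth. After thinning, the division share overlapped between these treatments. Before thinning, in the gate used for these calls, it was 49.7% and 56.9% in late rapamycin against 42.4% and 35.1% with tamoxifen alone. Both late rapamycin mice then lay above both tamoxifen mice, at unequal depth. All 10 division genes lay above 0 in late rapamycin, with none passing (median 0.35). The part of division in the chaperone calls was not tested. Without late rapamycin replicate 1 there were 7 chaperone calls, without replicate 2 there were 5, without tamoxifen replicate 1 or 2 there were 5 and 4, and without a tamoxifen with rapamycin mouse, which only shares in the estimate of the spread, 2 or 1. Without the day block 1 remained, and without cells rich in other types 7.

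Cold-inducible RNA-binding proteins fell. Cirbp had 99.1 and 113 CPM with tamoxifen alone, 105 and 109 with both agents, and 54.8 and 58.7 in late rapamycin. The late rapamycin mice lay below every other mouse, by log2 -0.91 ± 0.12 against tamoxifen (edgeR adjusted p = 0.00591). Rbm3 had 560 and 509, 353 and 382, and 360 and 342 CPM. Both rapamycin treatments were below tamoxifen, for late rapamycin by log2 -0.61 ± 0.09 (edgeR adjusted p = 0.0107), and for tamoxifen with rapamycin at -0.53 ± 0.09, which missed the threshold (edgeR adjusted p = 0.0746). The call of Rbm3 was lost without tamoxifen replicate 1 (-0.54) or tamoxifen with rapamycin replicate 2 (-0.61), and that of Cirbp held without each mouse.

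MHC class II genes, which present antigen and are also transcribed in some stem cells, were low in late rapamycin. H2-Aa (chr17:34282744-34287823) had 31.9 and 30.8 CPM with tamoxifen alone, 32.3 and 27.9 with both agents, and 7.15 and 9.96 in late rapamycin, a log2 fold change against tamoxifen of -1.76 ± 0.24 (edgeR adjusted p = 0.00782). Cd74, the invariant chain, had 63.2 and 37.6, 41.9 and 30.0, and 19.9 and 11.0 CPM (-1.74 ± 0.20, edgeR adjusted p = 0.00279). Neither gene's late rapamycin values met any other. These 2 of the 8 tested genes fell, none of the 8 lay above 0, and the median was -0.65. B cells are a possible source of such RNA, and their markers stood at 21.9 and 29.7 CPM in late rapamycin and 23.8 to 31.9 in the other mice. Both genes passed without cells rich in other types. That run could not bear on B or dendritic cells, since no gate cell was rich in B cell markers and dendritic markers were not used. The source of this RNA was not tested. In tamoxifen replicate 1, 1 cell held 52 of the 127 Cd74 UMIs and 1 cell 17 of the 64 H2-Aa UMIs. Both calls held without each mouse in turn, while by DESeq2 and in cells with no division gene UMI neither passed.

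Stem cell genes beyond the rule gave 2 calls of 39, both lower. Angpt1, the ligand of Tek, had 3594 and 4106 CPM with tamoxifen alone, 3357 and 3463 with both agents, and 1938 and 3073 in late rapamycin (log2 -0.64 ± 0.11, edgeR adjusted p = 0.0315). Txnip, which restrains glucose uptake and growth, had 426 and 558, 397 and 382, and 302 and 237 CPM (-0.90 ± 0.14, edgeR adjusted p = 0.0129). Both genes were lowest in the late rapamycin mice, and the list's median was -0.11. Neither passed without one of the tamoxifen with rapamycin mice, which lend only their spread. The oestrogen response list gave 2 of 13, with Ccnd1 (cyclin D1) at -1.04 and Esr1, the oestrogen receptor, at -0.55. The 21 platelet genes gave none, with a median of 0.03.

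Single genes outside the lists made up most other calls. Plekha7, a protein of cell junctions, had 15.9 and 14.8 CPM with tamoxifen alone, 38.7 and 31.6 with both agents, and 46.1 and 61.6 in late rapamycin (log2 1.86 ± 0.21, edgeR adjusted p = 0.00279). Its neighbour on chromosome 7, the transcription factor gene Sox6, rose by 0.94, with 60.3 and 72.0, 120 and 108, and 96.2 and 152 CPM. Both were lowest with tamoxifen alone, and without late rapamycin replicate 2 Sox6 (0.53) did not pass. Others that rose, picked after their values were seen, were Odc1 (0.73), the first enzyme of polyamine synthesis, Nme1 (0.55), a nucleotide kinase, Pclaf (0.60), a partner of PCNA, and Bub1 (0.90), a mitotic checkpoint kinase. Alg8, a glycosyltransferase of the ER, rose by 1.22 and Fut8, a fucosyltransferase, by 0.83. Among those that fell were Itsn1 (-1.23), an endocytic scaffold, Lhcgr (-1.13), the luteinising hormone receptor, Tox (-0.96), a nuclear protein of lymphoid development, Mmrn1 (-0.97), a protein of platelet granules, Nr3c2 (-0.99), the mineralocorticoid receptor, and Ifi204 (-2.76), an interferon-inducible gene.

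The neutrophil genes Camp, Ltf, Chil3, Wfdc21 and Lyz2 also passed, but their values moved with a few cells. Camp had 420 and 128 CPM with tamoxifen alone, 415 and 184 with both agents, and 930 and 293 in late rapamycin, so that the groups overlapped. Without cells rich in other types Camp stood at -0.25, against 1.16 with them, Ltf at -0.13 against 1.48, Chil3 at -0.62 against 1.11, Lyz2 at -0.093 against 0.64, and Wfdc21 at 0.11 against 1.89.

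**Figure D5:**
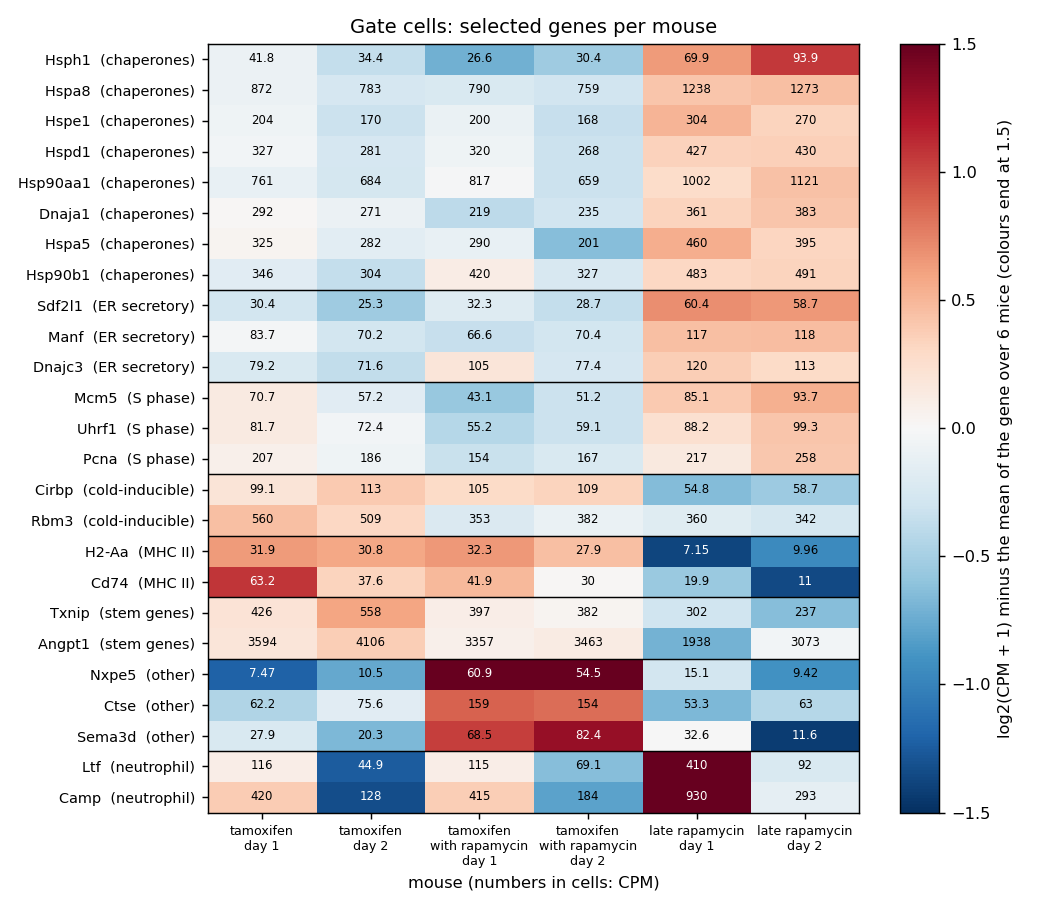
Level of selected genes in the gate cells of each mouse (columns). Numbers are CPM, and colours give log2(CPM + 1) minus the gene's mean over the 6 mice, from blue (lower) to red (higher); the late rapamycin columns are red for chaperones and blue for Cirbp and the MHC class II genes, and Nxpe5, Ctse and Sema3d are red in the tamoxifen with rapamycin columns.

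Tamoxifen with rapamycin against late rapamycin sets rapamycin soon after birth, with tamoxifen, beside rapamycin a month later without it. Of 11324 genes 106 passed (0.936%), 58 higher (0.512%) and 48 lower (0.424%) in tamoxifen with rapamycin, and 1759 had an unadjusted p under 0.05. Without the day block 16 passed. Nxpe5 and Ctse were higher by log2 2.34 ± 0.24 and 1.41 ± 0.12 (edgeR adjusted p = 0.00206 and 0.000701). Sema3d was higher by 2.06 ± 0.30 (edgeR adjusted p = 0.0100), and without tamoxifen with rapamycin replicate 2 it stood at 1.37 and did not pass, nor did Nxpe5 (2.36) or Prtn3 (0.92). Gm49692 was lower by log2 -3.18 ± 0.38 (edgeR adjusted p = 0.00440). Dynll1 differed by log2 -1.06 ± 0.10 (edgeR adjusted p = 0.000701), a call that held in every alternative run. Prtn3, a protease of myeloid progenitors, was higher by 1.38, with 230 and 209 CPM with tamoxifen alone, 259 and 361 with both agents, and 151 and 101 in late rapamycin. Rec8, a meiotic cohesin, was higher by 2.05 at no more than 23.7 CPM in any mouse.

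The groups above kept their sides here, since the late rapamycin mice are shared. Of 19 chaperones 8 were lower and none higher (median -0.44), led by Hsph1 (-1.55), Hspa5 (-0.82), Dnaja1 (-0.71), an Hsp40 co-chaperone, and Hspa8 (-0.70). In cells with no division gene UMI none passed (median -0.39), and without tamoxifen with rapamycin replicate 1 or 2 there were 1 and 0 calls. Cirbp was higher by 0.91, H2-Aa by 1.70, Cd74 by 1.27 and Esr1 by 0.68. Without tamoxifen with rapamycin replicate 1 or 2 none of these 4 passed, at 0.88 and 0.98 for Cirbp, 1.60 and 1.89 for H2-Aa, 1.42 and 1.12 for Cd74, and 0.69 and 0.69 for Esr1.

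Genes of DNA replication separated these treatments. Mcm5, a subunit of the replicative helicase, had 70.7 and 57.2 CPM with tamoxifen alone, 43.1 and 51.2 with both agents, and 85.1 and 93.7 in late rapamycin. The tamoxifen with rapamycin mice were lowest and the late rapamycin mice highest, by log2 -0.92 ± 0.16 (edgeR adjusted p = 0.0225). Pcna, the sliding clamp, had 207 and 186, 154 and 167, and 217 and 258 CPM (-0.58 ± 0.11, edgeR adjusted p = 0.0343), and Uhrf1, which maintains DNA methylation, differed by -0.73. These 3 of 40 genes of S phase were lower, 39 of the 40 lay below 0, and the median was -0.44, against -0.12 between the tamoxifen treatments and 0.33 for late rapamycin minus tamoxifen, where none passed. Without tamoxifen with rapamycin replicate 1, replicate 2 or late rapamycin replicate 2 none of the 40 passed (medians -0.45, -0.42 and -0.26), and by DESeq2 none did. Prim2, the large primase subunit, and the histone gene Hist2h2ac, both outside the list, differed by -0.87 and -0.90. Of 73 genes of oxidative phosphorylation 2 were lower, Atp5k (-0.76) and Cycs (-0.70), with a median of -0.22.

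Hbb-bs and Hba-a1, globin genes, passed at log2 2.66 and 2.74 on 1 cell of tamoxifen with rapamycin replicate 2, which held 329 of the 350 Hbb-bs UMIs of that mouse. Without that mouse they stood at -0.025 and -0.41.

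Whether a treatment difference was larger in the gate than in Flt3-positive cells was tested as an interaction over 11428 genes. It was called for 1 gene (0.00875%) in tamoxifen with rapamycin minus tamoxifen, 4 (0.0350%) in late rapamycin minus tamoxifen and 4 (0.0350%) in tamoxifen with rapamycin minus late rapamycin. H2-Aa was among them in the last: in Flt3-positive cells it stood at 26.3 and 58.2 CPM with tamoxifen alone, 33.2 and 32.7 with both agents, and 62.5 and 38.4 in late rapamycin, where the gate had its lowest values. None of the chaperones, Cirbp, Nxpe5 or Ctse was called, which does not show that their differences were equal in both classes.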

How the data were processed

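RNA of single marrow cells was captured with 10x 3′ chemistry in 2 libraries, 1 per day, each with 3 mice told apart by hashtag antibodies. Deposited values are UMI counts per gene and cell, made with Cell Ranger 7.0.0 on mm10 per the submitters' processing notes, while the matrix file headers name version 8.0.1. Filters beyond these, and whether intronic reads were counted, are not given in the sources used here. No column was left unused.

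The 32285 gene identifiers were used as deposited, and 32158 were found in GENCODE vM21 (GRCm38), from which coordinates were taken. Cells were filtered and the gate applied as described. Doublets were treated only by the hashtag filter, which removed 12.1% and 9.99% of cells of the days, so doublets within a mouse remain. Between the libraries 126 barcodes were shared. Members and gene lists were chosen with earlier results of these data known.

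Counts were summed per mouse and tested with edgeR 4.0.16 (R 4.3.3; TMM scaling, filterByExpr, quasi-likelihood test, two-sided, Benjamini-Hochberg threshold 0.05), all 6 mice sharing 1 estimate of the spread. CPM are UMIs of the summed cells scaled to a common total after TMM, and SE is the log2 fold change over the root of F. Gate and Flt3-positive cells, and the Vwf split, had the mouse as a block. The pairing of mice by day comes from the labels: deviations of the same day correlated at 0.06, 0.079 and 0.088 over 11333 genes. Counts were simulated with 200 genes changed in tamoxifen with rapamycin. The test against tamoxifen found 85% of 2-fold and 99% of 4-fold changes with 13 false calls. That against late rapamycin found 83% and 97% with 19 false calls. Against tamoxifen DESeq2 found 60% and 91% with 3 false calls. The changed genes were taken from those with higher counts, and the spread was edgeR's own estimate. These shares therefore do not hold for all genes tested. Shares were compared with exact permutation tests, with Clopper-Pearson intervals that cover counting error only. Thinning drew 2000 UMIs from each kept cell (seed 1), left out shallower cells and applied the rules again.

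Named genes are the 14 rule genes and Tppp3, up to 12 called genes per direction with the largest fold and the same sign on both days (or in all 6 mice), up to 12 more with the smallest p where under 20 passed, and up to 4 of each list with the smallest p. Other names were chosen after their values were seen: Gm49692, Manf, Dnajc3, and any further list member or called gene. Alternatives were no low-count filter, RLE scaling, DESeq2 1.42.0, no replicate block, only the 4 mice compared, each mouse left out, at least 2 or 4 markers, a 95% hashtag share, no cells in the top 5% of UMIs, no cells with a division gene UMI, and, added after seeing the data, no cells rich in other types or in megakaryocyte genes. Python 3.11.15 with numpy 2.4.6, scipy 1.17.1 and pandas 2.3.3 did the rest.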

Additional observations from a re-analysis of the deposited data

Results flagged for a closer look

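The values in this paragraph are log2 differences between the treatment difference in gate cells and that in Flt3-positive cells of the same mice, from edgeR's interaction test, and each was singled out because that difference passed the test. Pf4 stood at 1.77 in tamoxifen with rapamycin minus tamoxifen (edgeR adjusted p = 0.00128). In the gate it had 140 and 116 CPM in tamoxifen and 248 and 103 in tamoxifen with rapamycin, and in Flt3-positive cells 19.7 and 16.4 against 9.93 and 4.39, so the gate values overlapped. It did not pass without tamoxifen with rapamycin replicate 1 (1.71), nor without cells rich in megakaryocyte genes or other types (0.61). H2-Aa stood at 2.15 in tamoxifen with rapamycin minus late rapamycin (edgeR adjusted p = 0.0132), and did not pass without either tamoxifen with rapamycin mouse (2.07 and 2.27). Gda, guanine deaminase, stood at -1.48 in late rapamycin minus tamoxifen (edgeR adjusted p = 0.0317). Its gate values were 37.7 and 53.0 CPM in tamoxifen and 126 and 24.6 in late rapamycin, which overlapped. In Flt3-positive cells Gda had 9.25 and 10.8 CPM in tamoxifen and 73.4 and 16.2 in late rapamycin, which did not overlap.

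The other 5 values rest on few cells. The basophil protease gene Prss34 stood at 15.4 in late rapamycin minus tamoxifen and -7.29 in tamoxifen with rapamycin minus late rapamycin (edgeR adjusted p = 1.87e-05 and 0.000200). Its gate values were 0 and 0 CPM with tamoxifen alone, 44.8 and 0.414 with both agents, and 29.9 and 46.8 in late rapamycin, so the fitted size is no bound, and 1 cell of late rapamycin replicate 2 held 165 of that mouse's 177 UMIs. In Flt3-positive cells Prss34 had 0.973 and 56.3 CPM with tamoxifen alone, 62.0 and 55.1 with both agents, and 1.82 and 0.349 in late rapamycin. Mcpt8, a basophil protease gene too, stood at 5.24 and -4.07 in the same comparisons (edgeR adjusted p = 0.0207 and 0.0118). Hbb-bs stood at 4.47 in tamoxifen with rapamycin minus late rapamycin (edgeR adjusted p = 0.0118), with 145 CPM in the gate of tamoxifen with rapamycin replicate 2, from the 1 cell described above, and 179 CPM in Flt3-positive cells of late rapamycin replicate 1.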

How the results depend on the processing

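The 4 genes of tamoxifen with rapamycin minus tamoxifen became 99 without a low-count filter, 55 with only the 4 mice compared and 2 with at least 2 markers, and 5 to 42 with a mouse left out. The 79 of late rapamycin minus tamoxifen became 406 without the filter, 30 by DESeq2, 8 with no replicate block, 9 with only 4 mice, 137 and 28 with at least 2 or 4 markers, 35 without the top 5% of UMIs, 5 without cells with a division gene UMI, and 31 to 246 with a mouse left out. The 106 of tamoxifen with rapamycin minus late rapamycin became 517, 23, 16 and 278 in the first 4 of these, 16 with at least 4 markers, 63 at a 95% hashtag share, 37 without the top 5% of UMIs, 4 without cells with a division gene UMI, and 13 to 276. The 2403 genes of gate against Flt3-positive cells became 1555 by DESeq2 and 1220 with no replicate block (2008 to 2600 with a mouse left out). The 1232 of the Vwf split became 750 by DESeq2, 44 after thinning and 236 without cells rich in megakaryocyte genes or other types (861 to 1282). The interaction counts 1, 4 and 4 became 12, 24 and 25 without the filter, 0, 2 and 1 without those rich cells, 0 by DESeq2 for both counts of 4, 1 for tamoxifen with rapamycin minus late rapamycin without cells rich in other types, and 0 to 7, 2 to 27 and 1 to 39 with a mouse left out.

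The gate's share of kept cells differed by -1.996, -2.58 and 0.583 percentage points in tamoxifen with rapamycin minus tamoxifen, late rapamycin minus tamoxifen and tamoxifen with rapamycin minus late rapamycin, and the last was -0.253 without cells rich in other types. With a mouse left out these values ranged from -2.84 to -1.15, -6.27 to 1.11 and -3.11 to 4.28. Over gate and Flt3-positive cells they became 0.387, 1.77 and -1.39. The division share of tamoxifen with rapamycin minus tamoxifen was -0.650 with all UMIs, -0.907 with at least 2 markers and -1.64 with at least 4, and the Vwf share of tamoxifen with rapamycin minus late rapamycin was -1.88 with all UMIs. The causes were not tested.

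Single genes changed sign as follows (log2). Vwf in tamoxifen with rapamycin minus tamoxifen ranged from -0.27 without tamoxifen replicate 1 to 1.08 without replicate 2, and against late rapamycin from 0.0043 without late rapamycin replicate 1 to -0.89 without replicate 2, and stood at 0.43 without cells with a division gene UMI. Without those dividing cells Sdf2l1 stood at -0.12 in late rapamycin minus tamoxifen, and Ltf, Camp and Chil3 at 0.25, 0.68 and 0.055 in tamoxifen with rapamycin minus late rapamycin. Without cells rich in other types Ltf, Camp, Chil3 and Lyz2 stood at -0.13, -0.25, -0.62 and -0.093 in late rapamycin minus tamoxifen, Ltf at 0.26 and Hbb-bs at -0.20 in the other, and the Hbb-bs interaction at -0.26, or -0.23 without megakaryocyte-rich cells too. Hbb-bs also ranged from -0.025 without tamoxifen with rapamycin replicate 2 to 3.17 without replicate 1, and stood at -0.93 with at least 4 markers, Hba-a1 ranged from -0.41 to 3.16 without the same mice, and Mki67 in the Vwf split stood at -0.15 after thinning. Depth limits the rare genes: 3 UMIs of a gene in the gate correspond to 0.802 to 2.35 CPM per mouse.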
